A study of Mus musculus with 4 samples.

Results

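Lipoprotein lipase, the angiopoietin-like proteins that regulate it and the receptors that take up lipoproteins and fatty acids were examined in mouse 3T3-F442A adipocytes, with and without a hairpin against the calcium-permeable channel gene Trpv4. The genes were 8 in number: Lpl, Angptl8, Angptl4, Angptl2, Lmf1, Gpihbp1, Vldlr and Cd36. Every probe set whose annotation named exactly one of them was taken, which gave 13 of the 22626 probe sets in the table and covered 6 of the 8 genes. Angptl2 and Gpihbp1 had no such probe set and were not analysed here. The 8 genes were proposed with the differences between these same arrays already known. Their differences are therefore given as a description, and how many of them the fit over all probe sets called is counted once, with nothing read from it. Other genes of the pathway were tested in lists that were likewise drawn up with earlier results of these arrays known.

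Lipoprotein lipase is made by adipocytes, leaves the cell and splits the triglyceride of circulating lipoproteins into fatty acids that the fat cell stores. The enzyme is folded with the help of the membrane protein LMF1 and is carried and held on capillary endothelium by GPIHBP1. Angiopoietin-like proteins control it after secretion: ANGPTL4 is induced by fasting and inactivates it in fat, and ANGPTL8 is induced by feeding and insulin and works together with relatives. ANGPTL2 belongs to the same protein family but is known for inflammation rather than for lipase control. VLDLR binds triglyceride-rich lipoproteins, and CD36 carries long-chain fatty acids across the plasma membrane.

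The 4 arrays formed 2 groups of 2. The group shGFP carried a control hairpin, and the group shTRPV4 a hairpin against Trpv4. Hairpins were brought in with a retrovirus, with puromycin selection at 2 ug/ml for 2 days, and both groups were then differentiated for 8 days with 850 nM insulin and, for the first 2 days, rosiglitazone, which activates PPAR gamma. Both groups therefore shared the insulin and the PPAR gamma agonist that act on several of these genes, and no array without them was used. The labels do not say whether replicates were separate infections or cultures, or how many hairpin sequences were used, so that all p-values cover no more than the scatter among the arrays themselves, possibly technical.

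The deposited values are linear intensities with medians of 129.4 to 144 per array and 25th percentiles of 20.7 to 21.7. After quantile normalization, differences were taken as shTRPV4 minus shGFP in log2(intensity + 16), with the standard error (SE) of limma, a linear model fitted to all probe sets. On that scale a dim probe set shows a smaller difference than its intensities have. The single Trpv4 probe set (1417545_at) read 43.7 and 93.8 in shGFP and 80.1 and 79.5 in shTRPV4, so it did not check the labels, and the groups are named by label only (difference 0.32, SE 0.31, limma adjusted p = 0.55). The adipocyte identity was clear in both groups: Adipoq read at least 11785 and Fabp4 at least 18099 on every array. Of 13 measured adipocyte markers 7 rose and 1 fell at a limma adjusted p under 0.05, which is 61.5% called against 11.3% of all genes. The marker that fell was Lep, which read 68.3 and 43.9 in shGFP and 3.93 and 4.92 in shTRPV4. Cidec had a negative difference and did not pass (−0.14, SE 0.16). Among the 11 markers of preadipocytes and fibroblasts 7 fell against 0 that rose at the same threshold (63.6% called). At an unadjusted limma p under 0.05, 8 of them fell and 1 rose. The summed intensity of the adipocyte markers was 45807 to 46151 in shGFP and 57435 to 59603 in shTRPV4, and that of the preadipocyte markers was 46393 to 48230 and 32120 to 32753. These shifts lie between the same groups that every result below compares, and their part in those results was not tested. In bulk RNA, fewer cells of a type and less RNA per cell cannot be told apart.

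Among the secreted lipase regulators, Angptl8 read higher in shTRPV4 than in shGFP and Angptl4 read lower, while Lpl itself was close to equal. Angptl8 (1427422_at) read 12.6 and 29.1 in the shGFP arrays and 408.8 and 311.5 in the shTRPV4 arrays. Both shGFP readings lay at the dim end of the array, one below the 25th percentile and one just above it, and both shTRPV4 readings lay above the array medians. The groups did not overlap, and the group means were 20.8 ± 11.7 and 360.2 ± 68.8 (SD, n = 2), a ratio of 17.3. The log2 difference was 3.41 (SE 0.28). Its size rests on the offset, because the control readings lie around 16: it was 4.19 with an offset of 1 and 2.35 with an offset of 64. The detection limit of the array is unknown and the shGFP readings are dim, so the size of the ratio is not firm in either direction.

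The promoters of the members with the clearest higher readings and of Cd36, which showed little difference, are printed for comparison, as the 250 bases before the transcription start in RefSeq's GRCm38.p6 table, on the gene's own strand. The table held entries for 5 of the 8 genes (Angptl8, Vldlr, Cd36, Lmf1 and Angptl2). The build behind the array is not given in the sources used here; genes were matched by symbol. Angptl8 lies at chr9:21835260-21835509 on the plus strand, Vldlr, at the upstream one of its listed starts, at chr19:27216234-27216483 on the plus strand, and Cd36 at chr5:17835897-17836146 on the minus strand. Capitals mark the matches described below.
Angptl8: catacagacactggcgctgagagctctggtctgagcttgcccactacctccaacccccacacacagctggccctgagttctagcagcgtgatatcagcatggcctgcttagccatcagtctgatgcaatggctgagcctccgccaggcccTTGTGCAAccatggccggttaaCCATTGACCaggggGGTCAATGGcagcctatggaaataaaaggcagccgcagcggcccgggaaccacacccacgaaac
Vldlr: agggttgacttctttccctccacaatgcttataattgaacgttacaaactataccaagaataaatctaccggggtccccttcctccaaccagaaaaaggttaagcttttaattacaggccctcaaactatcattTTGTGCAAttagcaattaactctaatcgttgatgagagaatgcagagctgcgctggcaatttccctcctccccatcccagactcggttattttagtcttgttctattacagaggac
Cd36: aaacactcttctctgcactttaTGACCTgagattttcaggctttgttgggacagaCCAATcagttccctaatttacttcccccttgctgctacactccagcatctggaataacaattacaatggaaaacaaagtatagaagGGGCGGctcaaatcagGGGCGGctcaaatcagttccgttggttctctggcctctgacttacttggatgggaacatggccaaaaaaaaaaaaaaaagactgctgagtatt

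The windows of all 32851 listed promoters were searched on both strands for 7 short motifs: the TATA box (TATAAA), the CCAAT box, the E-box (CACGTG), the nuclear receptor half-site (AGGTCA) and, overlapping with it, its core (GGTCA), the GC box (GGGCGG) and a C/EBP-type motif (TTGCNNAA). Angptl8 and Vldlr each held the C/EBP-type motif once, on the reverse strand, where both windows read TTGTGCAA on the gene's own strand, 100 and 116 bases before the start. The motif was present in 9.56% of all promoters and that exact run in 0.895%, the run picked after the sequences were seen. The other listed Vldlr start, not printed, had no C/EBP-type match in its window and had 1 CCAAT box and 1 GC box. Angptl8 also held the core of the half-site on each strand, 2 matches in all (35.2% of promoters have at least 1). Both copies lie inside a perfect inverted repeat whose left arm, CCATTGACC, begins 78 bases before the start and is followed, after 5 bases, by its reverse complement. Each arm has 9 bases. That repeat, also noticed after the sequence was seen, is of a kind (arms of 9, gap of at most 8) found in 2.16% of promoters. Cd36 held the half-site once, on the reverse strand 228 bases before the start (14.0% of promoters), the CCAAT box once (33.8%) and the GC box 2 times (32.7%). The printed windows held neither the TATA box letters (12.4% of promoters) nor the E-box (6.02%). A match is a run of letters and shows no binding.

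Angptl4, whose protein inactivates the lipase, read lower in shTRPV4 on both of its probe sets. The bright one (1417130_s_at) read 6068 and 6863 in shGFP and 4317 and 4741 in shTRPV4. All readings of shTRPV4 lay below those of shGFP, with a mean 30.0% lower (6466 ± 562 against 4529 ± 300, SD, n = 2; log2 difference −0.54, SE 0.08). The dim one (1453410_at) read 91.6 and 90.8 in shGFP and 61.7 and 69.2 in shTRPV4, again without overlap. Its mean was 28.2% lower. The log2 difference was −0.32 (SE 0.08), and −0.38 with an offset of 1 and −0.40 with the values as deposited. The probe sets were designed from different transcripts, but the _s_at type can also read related sequences. Under all 12 settings tried, both differences stayed below 0, from −0.62 to −0.41 and from −0.40 to −0.21.

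**Figure D1:**
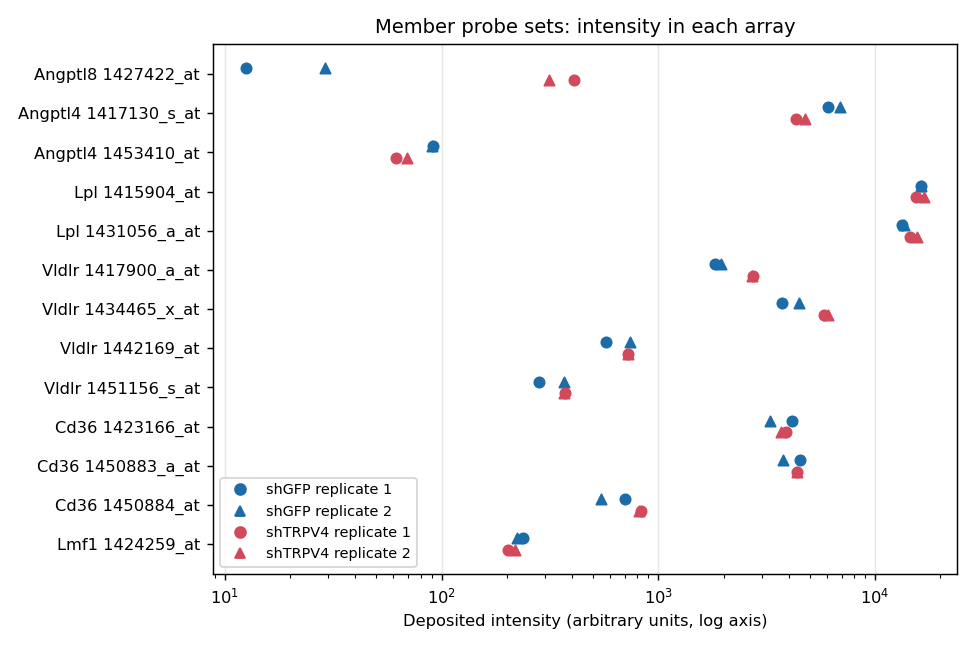
Deposited intensity of each of the 13 probe sets (log axis, arbitrary units) in each array, with shGFP in blue and shTRPV4 in red, circles for replicate 1 and triangles for replicate 2. Angptl8 moves from 12.6 and 29.1 to 408.8 and 311.5, both Angptl4 probe sets lie lower in shTRPV4, and the Lpl readings of the groups lie close together.

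The enzyme's own transcript was among the brightest on every array and differed little. Lpl read 16196 and 16336 in shGFP and 15411 and 16727 in shTRPV4 on 1415904_at, where the shTRPV4 readings lie on both sides of the shGFP ones. Its group means differed by 1.2% (log2 difference −0.05, SE 0.07), and the sign turned to 0.08 with median centring. On 1431056_a_at it read 13321 and 13540 in shGFP and 14463 and 15601 in shTRPV4, which did not overlap. There the mean was 11.9% higher in shTRPV4, and quantile normalization brought the log2 difference to 0.10 (SE 0.07), from 0.16 with the values as deposited and 0.26 with median centring. Readings this close to the array maxima of 18099 to 19625 are held near a common value by quantile normalization, so that a modest difference in Lpl could be hidden on that scale. Lmf1 (1424259_at), the folding factor of the lipase, read 238.1 and 222.3 in shGFP and 202.2 and 217.2 in shTRPV4. These did not overlap as deposited, but after normalization shGFP replicate 2 and shTRPV4 replicate 1 stood at the same rounded log2 value of 7.83 (difference −0.06, SE 0.09).

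Of the lipid receptors, Vldlr read higher in shTRPV4 on all 4 of its probe sets, and to unequal degrees. On 1417900_a_at it read 1833 and 1940 in shGFP and 2729 and 2712 in shTRPV4, without overlap. The mean was 44.2% higher (1886 ± 76.0 against 2721 ± 12.1, SD, n = 2; log2 difference 0.55, SE 0.06). On 1434465_x_at it read 3700 and 4475 in shGFP and 5783 and 6029 in shTRPV4, also without overlap and with a mean 44.5% higher (0.51, SE 0.10). The annotation gave no source sequence for 1434465_x_at, so whether it is independent of 1417900_a_at is not known. The remaining pair showed less. The probe set 1442169_at read 573 and 738.8 in shGFP and 722.3 and 725.6 in shTRPV4, so that shGFP replicate 2 was the highest of the 4. The probe set 1451156_s_at read 280.4 and 367.3 in shGFP and 371.9 and 365.5 in shTRPV4, so that shGFP replicate 2 lay between the shTRPV4 arrays. Their means were 10.4% and 13.9% higher (log2 differences 0.19 and 0.25, SE 0.12 for both), and their groups overlapped as deposited. After normalization they did not overlap, by narrow margins. The higher shGFP and the lower shTRPV4 log2 values were 9.51 and 9.53 on 1442169_at. On 1451156_s_at they were 8.51 and 8.59. On all 4 probe sets shGFP replicate 1 was the lowest array. Without it the differences of the latter pair were 0.04 and 0.11, while those of the former pair were 0.54 and 0.41. Without shGFP replicate 2 the latter pair stood at 0.34 and 0.40 and the former at 0.57 and 0.63.

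Cd36 differed little on its brighter pair of probe sets and more on the dimmer one. Its 3 probe sets, all designed from 1 source sequence and therefore not independent, each read highest among the control arrays in shGFP replicate 1 and lowest in shGFP replicate 2. On 1423166_at the readings were 4114 and 3266 in shGFP and 3891 and 3696 in shTRPV4, with both shTRPV4 arrays between the controls (log2 difference 0.04, SE 0.15). On 1450883_a_at they were 4486 and 3762 in shGFP and 4379 and 4371 in shTRPV4, in the same arrangement (0.10, SE 0.12). The dimmer 1450884_at stood apart, with 703.6 and 541.3 in shGFP and 835.1 and 809.9 in shTRPV4, no overlap and a mean 32.1% higher (0.45, SE 0.17). Leaving out shGFP replicate 2 turned the brighter pair to −0.15 and −0.05, and leaving out shGFP replicate 1 raised them to 0.23 and 0.24. For 1450884_at the same choices gave 0.23 and 0.67, so that the size of all 3 differences depended on a single control array.

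**Figure D2:**
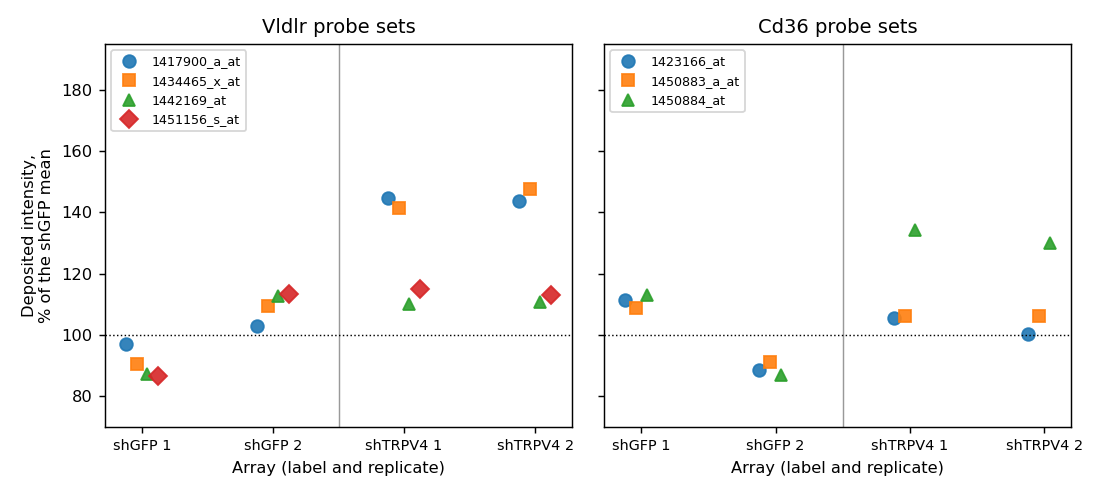
Deposited intensity of the 4 Vldlr (left) and 3 Cd36 (right) probe sets in each array, as a percentage of that probe set's shGFP mean (dotted line at 100). For Vldlr, 1417900_a_at and 1434465_x_at reach 141.5% to 147.5% in shTRPV4 and the others 110.1% to 114.8%, and for Cd36 only 1450884_at lies above both controls in shTRPV4, at 134.2% and 130.1%.

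Over the 13 probe sets of the 6 measured genes, 9 had a positive and 4 a negative difference, with a median of 0.10 against 0.02 over all probe sets. In the fit over all probe sets, 3 of the 13 passed a Benjamini-Hochberg adjusted p under 0.05: Angptl8, Angptl4 on 1417130_s_at and Vldlr on 1417900_a_at. Over all probe sets 9.90% passed. With the genes picked from this same comparison, nothing is read from that count. It was split as 2 higher and 1 lower, and as 2 and 0 with the values as deposited and 3 and 0 with median centring, where Angptl4 no longer passed. With any 1 array left out limma called 0 of the 13 (4 to 6 at an unadjusted p under 0.05) and 0 of all probe sets (4543 to 5913 at an unadjusted p under 0.05). The groups did not overlap for 8 of the 13 as deposited, where 56.5% of all probe sets did not overlap, and for 9 after normalization, against 58.5%.

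**Figure D3:**
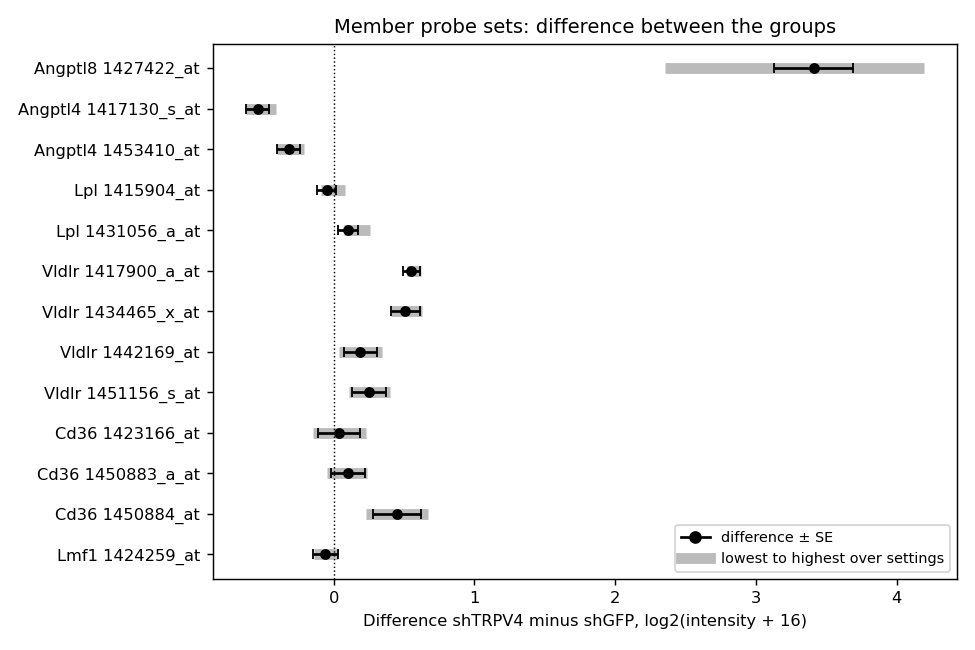
Difference between the groups (shTRPV4 minus shGFP, log2(intensity + 16) after quantile normalization) for each of the 13 probe sets, as points with limma's SE, with grey bars from the lowest to the highest value over 12 settings. The Angptl8 bar runs from 2.35 to 4.19, the Angptl4 bars stay below 0, the Vldlr bars stay above it, and those of Lpl (1415904_at), Cd36 (1423166_at and 1450883_a_at) and Lmf1 cross it.

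The genes most like 3 of these in their 4-array pattern were found by the Euclidean distance between log2 values centred over the arrays, on the brightest probe set of each gene. For Angptl8 they were Thrsp, a lipogenic regulator (distance 0.653), the carbonic anhydrase Car9 (1.168) and the protease Prtn3 (1.229). For Angptl4 they were the DNA repair glycosylase Ogg1 (0.026), the ribosome biogenesis factor Emg1 (0.028) and the transcription factor Myc (0.030). The nearest to Lpl were Akap2, Rsrc2 and Xrn1 (0.006 to 0.008). The group difference of Thrsp was 3.29, against 3.41 for Angptl8, and that of Ogg1 was −0.53, against −0.54 for Angptl4. Close group differences follow from choosing genes by this distance over the same 4 arrays, so nothing is read from them. The distance covers the scatter within the groups as well, which was wide for Angptl8 (log2 SD 0.45 in shGFP and 0.29 in shTRPV4).

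Other genes that process lipases or carry lipoproteins were largely without a detectable difference. Of 26 measured, 1 rose, 2 fell and 23 did not pass, which is 11.5% against 11.3% of all 12393 genes, with a median of 0.07 (0.02 over all genes). Apoc1, an apolipoprotein that restrains lipoprotein lipase, rose from 687.6 ± 37.1 to 1330 ± 90.2 (SD, n = 2; difference 0.97, SE 0.11, limma adjusted p = 0.0276). Lipa, the lysosomal acid lipase, fell from 1759 ± 150 to 1100 ± 109 (−0.64, SE 0.09, adjusted p = 0.0392 by limma) and passed on 1423141_at too but not on 1423140_at (−0.06). Gpc1, a heparan sulfate proteoglycan, fell by 0.38 on the log2 scale (limma adjusted p = 0.04998). Without quantile normalization (values as deposited) neither Lipa nor Gpc1 passed, and Gpc1 did not with median centring either.

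Apoc2, Sel1l and Furin, from the same list and also with a direct link to the lipase, did not pass. Apoc2, its activating cofactor, read 58.7 and 55.0 in shGFP and 66.0 and 57.9 in shTRPV4 (0.17, SE 0.09). Sel1l, an adaptor of the endoplasmic reticulum that helps mature the lipase, had positive differences on all 4 probe sets, from 0.27 to 0.48, none past the threshold. Furin, a convertase that cleaves the lipase and angiopoietin-like proteins, read 327.4 and 427.9 in shGFP and 427.7 and 527 in shTRPV4 (0.38, SE 0.15, limma adjusted p = 0.20). Apoe, the ligand by which remnant particles bind receptors, read at most 23.3 on its single probe set, close to the 25th percentile of the arrays. The relatives Angptl1 and Angptl7 read at most 9.46, while Angptl6 read 215.4 and 266.5 in shGFP and 238.6 and 265.5 in shTRPV4 (0.13, SE 0.10).

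Among 26 other lipoprotein receptors and fatty acid uptake genes, 5 rose, 1 fell and 20 did not pass (23.1% passed, against 11.3% of all genes; median 0.04). The oxidised lipoprotein receptor Olr1 had the largest difference, from 215.7 ± 4.31 to 57.0 ± 8.07 (−1.61, SE 0.11, limma adjusted p = 0.0171). Mylip, the ubiquitin ligase that marks VLDLR and its relative the LDL receptor for destruction, rose from 918 ± 137 to 1777 ± 225 (0.96, SE 0.13, limma adjusted p = 0.0346). It thus read higher in the same arrays in which the Vldlr transcript did. Slc27a1, the fatty acid transporter of insulin-responsive tissues, rose from 105 ± 6.14 to 188.8 ± 15.2 (0.83, SE 0.09, adjusted p = 0.0258 by limma). The receptors Lrp5 (0.72, SE 0.07), known as a Wnt co-receptor, and Lrp6 (0.54, SE 0.08; not called in the values as deposited) rose as well. So did the receptor chaperone Lrpap1 (0.45), outside the naming rule and chosen after its values were seen.

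Other receptors of the list showed smaller or unproven differences. Scarb1, the high-density lipoprotein receptor, read 1508 ± 16.1 and 2182 ± 183 on its brightest probe set (0.55, SE 0.10, limma adjusted p = 0.0544) and passed on 1416050_a_at (0.69, adjusted p = 0.0246). Lrp1, a receptor for remnants and for the lipase, read 2700 and 2936 in shGFP and 2575 and 2610 in shTRPV4 (−0.11, SE 0.07). Cav1, the main protein of the caveolae in which CD36 resides, read 12967 and 14330 in shGFP and 14429 and 15891 in shTRPV4 (0.08, SE 0.08). Fabp4 is the brightest and is held at 0 by quantile normalization.

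**Figure D4:**
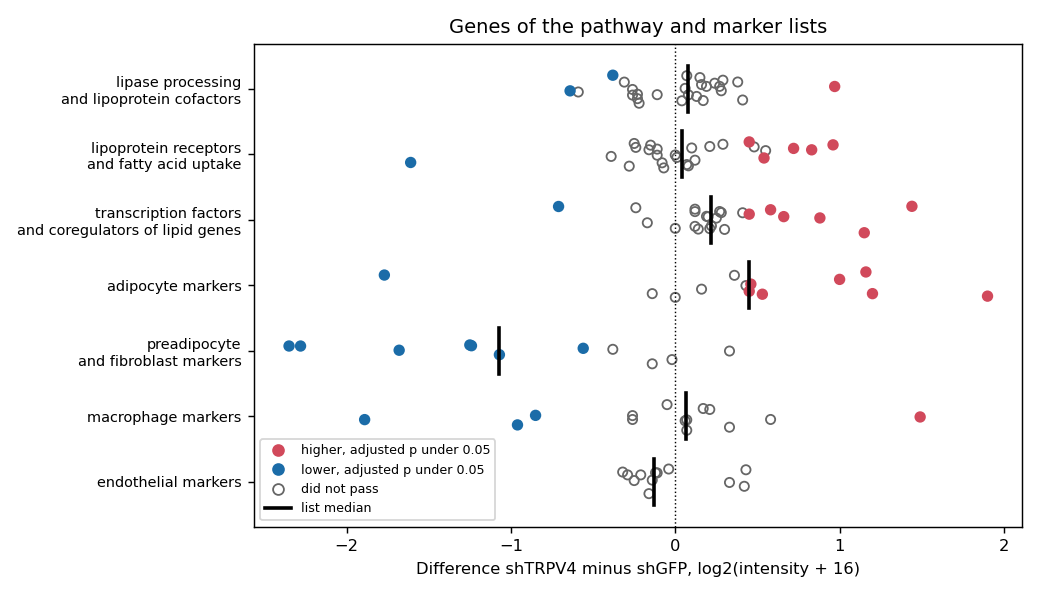
Difference between the groups (shTRPV4 minus shGFP, log2 scale) for each gene of 3 pathway lists and 4 marker lists, 1 brightest probe set per gene. Filled points passed a limma adjusted p under 0.05 (red higher, blue lower), open points did not, and black bars are list medians, from −1.07 for preadipocyte and fibroblast markers to 0.45 for adipocyte markers.

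Of 23 transcription factors and coregulators known to act on lipid genes, 6 rose, 1 fell and 16 did not pass. The share that passed was 30.4%, against 11.3% of all genes, and the median was 0.22 (0.02 over all genes). Differences were positive for 20 of 23, among them Cebpd at 0.0 after rounding, and for 6636 of all 12393 genes. This list, too, was drawn up with earlier results of these arrays known. Klf15, an insulin- and glucocorticoid-sensitive factor, rose from 349.8 ± 29.3 to 946.1 ± 68.6 (1.44, SE 0.13, limma adjusted p = 0.0202). The coactivator Ppargc1b rose by 1.15 and Cebpa, the C/EBP factor of mature fat cells, by 0.88. Nr1h3, which encodes the oxysterol receptor LXR alpha, rose from 86.3 ± 1.40 to 136.6 ± 5.06 (0.66, SE 0.08, limma adjusted p = 0.0281). Pparg, the receptor that rosiglitazone binds and that drives Lpl, Cd36 and Angptl4, rose by 0.45 (limma adjusted p = 0.0417), a call that the values as deposited did not give. Among these targets Lpl and the brighter Cd36 probe sets had differences near 0, the dimmer Cd36 probe set stood at 0.45, and Angptl4 read lower. A link between Pparg and these readings was not tested. The glucocorticoid receptor gene Nr3c1 also rose (0.58), and it lies outside the naming rule.

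Hif1a, the hypoxia-inducible factor that activates Angptl4 and Vldlr under low oxygen, was the factor that fell. It went from 5144 ± 224 to 3182 ± 16 (−0.71, SE 0.08, limma adjusted p = 0.0268). It passed on 1416035_at (−1.09) and 1448183_a_at (−0.87) as well, and not on 1431981_at, which read near 5. Srebf1, the insulin-responsive lipogenic factor, read 1857 and 1900 in shGFP and 2019 and 2226 in shTRPV4 (0.21, SE 0.07, limma adjusted p = 0.14). The carbohydrate-responsive factor Mlxipl read 21.95 and 31.9 in shGFP and 34.1 and 44.8 in shTRPV4 (0.41, SE 0.17, limma adjusted p = 0.22).

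Endothelial cells hold GPIHBP1 and CD36, and macrophages make Lpl, Cd36, Vldlr and Olr1, so markers of both were read on the same arrays. Every array title names 3T3-F442A cells, and none names endothelial cells or macrophages. Of 12 endothelial markers 0 passed (limma; 2 higher and 2 lower at an unadjusted p under 0.05). Their summed intensity was 325 to 452 in shGFP and 296 to 366 in shTRPV4. The brightest of them, Egfl7, read 277.6 and 169.1 in shGFP and 195.5 and 131.5 in shTRPV4, in the range of the array medians or above it. The other 11 read at most 44.3, with Pecam1, Kdr and Vwf at most 16.9.

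Of 14 macrophage markers 1 rose and 3 fell, which is 28.6% against 11.3% of all genes, with a median difference of 0.07. Their summed intensity was 1075 to 1166 in shGFP and 729 to 773 in shTRPV4. The lysosomal protein gene Cd68 rose from 53.9 ± 18.1 to 168.1 ± 19.9 (SD, n = 2; difference 1.49, SE 0.20, limma adjusted p = 0.0352). The lipopolysaccharide coreceptor gene Cd14 fell from 465.3 ± 6.40 to 223.3 ± 26.7 (−0.96, SE 0.12), the lysozyme gene Lyz2 from 252.9 ± 25.6 to 53.3 ± 14.8 (−1.89, SE 0.18) and the growth factor receptor gene Csf1r from 117.7 ± 15.8 to 54.1 ± 8.99 (−0.85, SE 0.13). Adgre1, which encodes the macrophage surface protein F4/80, read 73.0 and 70.5 in shGFP and 94.0 and 83.7 in shTRPV4 and did not pass (0.33, SE 0.09, limma adjusted p = 0.11). Cd14 on every array, Lyz2 in shGFP and Cd68 in shTRPV4 thus lay above the array medians, while Ptprc, Fcgr1 and Cd163 read at most 11.3. The markers named here lie outside the naming rule and were chosen after their values were seen. The part of these markers in the results for Lpl and the receptors was not tested.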

How the data were processed

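The values are the intensity table the authors deposited, 1 linear intensity per probe set and array, from biotin-labelled cRNA on Affymetrix arrays, per the labels' protocols. How they were summarised, background corrected and scaled was not given in the sources used here, so depth and detection limits are unknown and the number of arrays limits the precision. Probe sets were named from the platform annotation: 20380 had 1 gene symbol, 691 several and 1555 none. Intensities were taken as log2(intensity + 16), quantile normalized and fitted with limma 3.58.1 in R 4.3.3 over all 22626 probe sets (2 residual degrees of freedom, no covariate), with Benjamini-Hochberg adjustment over all of them. A listed gene was represented by its probe set with the highest mean. The genes named were all those described as the subject, up to 5 with the largest difference among those past the threshold in each pathway list, and a fixed set of 16. The genes, lists and rules were chosen with earlier results of these data known. Of 87 listed pathway genes 12 had no probe set and were not analysed here. Simulated data with independent noise were used only to check that median estimates matched the planted log2 differences. That check did not test the p-values. Alternatives were other scalings, offsets of 1 and 64, a filter at the 25th percentile, an intensity trend, averaged probe sets, the replicate number as a block and leaving out each array.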

Additional observations from a re-analysis of the deposited data

How the results depend on the processing

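The 13 differences of the subject genes changed sign only for Lpl (1415904_at, 0.08 with median centring), Cd36 and Lmf1, each near 0. With an offset of 1, limma called 0 of the 13 (5 at an unadjusted p under 0.05), 0 of the lipase processing genes (4 unadjusted), 1 of the receptor genes and 1 of the transcription factors, against 3, 3, 6 and 7. The values as deposited gave 1 lipase processing gene, and an intensity trend gave 10 receptor genes. The replicate number, shared by both groups in the titles, was also used as a replicate block. That limma fit called 0 in each of these 4 sets (6, 8, 10 and 10 at an unadjusted p under 0.05). It likewise called 0 of all probe sets (6858 at an unadjusted p under 0.05), so its lack of calls is not particular to these genes. Same-numbered arrays had deviations correlated at 0.119 over probe sets, and with only 2 numbers the labels do not show pairing. Leaving out any 1 array also gave 0 to 0 calls in each set (4 to 10 at an unadjusted p under 0.05). These fits have 1 residual degree of freedom. Over all probe sets the calls were 2240, split 1027 higher and 1213 lower, against 600 and 1161 as deposited and 1662 and 1141 with median centring, 606 with an offset of 1, 4116 with an offset of 64, 4059 with the filter on dim probe sets and 4150 with an intensity trend. No scaling moved the median of all probe sets past 0.08.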
